A study of Caenorhabditis elegans with 2 samples.

Results

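The genes described here are ire-1, xbp-1, pek-1, atf-6, sel-1 and sel-11, 6 of 19973 nuclear protein-coding genes of Caenorhabditis elegans, chosen by name for their part in the response to misfolded protein in the endoplasmic reticulum (ER). The binding data come from chromatin immunoprecipitation sequencing of whole hermaphrodites at the third larval stage (L3) of strain OP404 (unc-119(tm4063) III; wgIs404), in which an integrated transgene supplies NFYA-1 with GFP and FLAG at its C terminus, precipitated with anti-GFP. NFYA-1 is an A subunit of NF-Y, the trimeric factor known for binding the CCAAT box. There was 1 group of 2 biological replicates, so no comparison between conditions and no test over samples was possible, and a library from untagged animals was not analysed here. Whole animals were used, so a summit cannot be assigned to a tissue, and the promoter that drives the fusion protein was not stated in the labels.

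When unfolded proteins build up in the ER lumen, membrane-spanning sensors pass the signal on to the nucleus and the ribosome. IRE-1 is a kinase and endoribonuclease that cuts the mRNA of the bZIP factor XBP-1, which is then joined into the form that encodes the active factor. PEK-1, the worm PERK, phosphorylates the initiation factor eIF2alpha and so lowers translation, while ATF-6 is a bZIP factor held in the membrane. SEL-11 (HRD1) is a ubiquitin ligase of the ER membrane and SEL-1 (HRD3) its partner. They serve ER-associated degradation, which returns misfolded proteins to the cytosol for the proteasome. In mammalian cells NF-Y is known to act with ATF6 at the ER stress response element, in which a CCAAT box lies a fixed distance from CCACG.

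NFYA-1 peaks in the authors' final list, filtered by irreproducible discovery rate (IDR) over the replicates, lay at all 4 genes of the sensor branches and at neither degradation gene. These 4 are called sensor genes below, although xbp-1 encodes the target of the sensor IRE-1 and not a sensor. A summit was counted from 2000 bp upstream of the annotated gene start to the gene end. In that window 4 of 6 members had an IDR summit, against 29.0% of all protein-coding genes. In a promoter window of 500 bp upstream to 200 bp downstream of the start, 3 of 6 members had one, against 15.6% of all genes. The genes were not picked at random and are few, so no test of these counts is given. The members' windows were 3550 to 14668 bp long, against a median of 4027 bp for all genes, and a longer window can hold more summits. Strength is given as the rank of the authors' signal value among the 6932 IDR peaks, or among the 30000 regions of each relaxed list, which holds peaks and background together.

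The sequences at the strongest IDR summit of each sensor gene are shown first, because none of them holds the pentamer that NF-Y is known to bind. Each runs 5′ to 3′ on the strand of its gene in WBcel235 (ce11), 50 bp to either side of the summit, and the xbp-1 sequence ends at the base before the annotated start. Capitals mark CCAAT and GAGAGA on either strand (ATTGG and TCTCTC are their reverse complements). The last line is the summit at the BiP gene hsp-3, for contrast.
ire-1, chrII:8125036-8125136, minus strand: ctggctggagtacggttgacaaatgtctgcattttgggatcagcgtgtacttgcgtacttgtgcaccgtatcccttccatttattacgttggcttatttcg
xbp-1, chrIII:4193740-4193808, plus strand: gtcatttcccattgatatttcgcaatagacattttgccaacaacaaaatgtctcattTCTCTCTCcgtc
pek-1, chrX:11415377-11415477, minus strand: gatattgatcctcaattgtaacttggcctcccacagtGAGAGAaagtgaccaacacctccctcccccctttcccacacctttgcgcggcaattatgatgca
atf-6, chrX:12480591-12480691, plus strand: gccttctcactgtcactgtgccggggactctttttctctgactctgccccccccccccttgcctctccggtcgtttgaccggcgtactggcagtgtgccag
hsp-3, chrX:6092125-6092225, minus strand: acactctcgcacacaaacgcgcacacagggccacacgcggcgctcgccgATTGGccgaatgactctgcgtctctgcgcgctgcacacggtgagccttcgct

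CCAAT was at 0 of the 4 strongest sensor summits, against 27.6% of all 6932 IDR summits (1916) within the same 50 bp. The extended motif, CCAAT with a pair of purines before it and C or G and then a purine after it, was likewise at none of them, against 11.1% of all IDR summits. Within 100 bp of the summit, atf-6 alone had CCAAT, 89 bp downstream of the summit on the opposite strand, and 40.6% of all summits had one within that distance. GAGAGA lay at xbp-1 as a pair of overlapping matches centred 9 and 11 bp after the summit, and at pek-1 11 bp before it. It was at 28.4% of all IDR summits. The atf-6 summit held a run of 12 C and had 63.4% G and C, above the interquartile range of all summits (41.6% to 51.5%). The ire-1, xbp-1 and pek-1 summits lay within that range, at 46.5%, 44.6% and 50.5%. With so few summits, an absence of these letters says only that the windows do not contain them.

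ire-1 (WBGene00002147, chromosome II, 8112243 to 8124910, minus strand) had the strongest summit and the most of them. Its window, the longest of the 6, held 4 IDR summits, and 0.796% of protein-coding genes had 4 or more. The strongest summit (8125086) was intergenic, 176 bp upstream of the start. It had pooled rank 301 with a signal of 554.2, which was 4.58 times the median IDR signal. Its rank was 281 in replicate 1 and 331 in replicate 2, with summits at -174 and -183 bp, so both replicates placed it within 9 bp. Of all protein-coding genes, 1.99% had a stronger summit in their window.

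The other ire-1 summits lay farther from its start and nearer to other annotated starts. The second (8126339, pooled rank 1199, replicate ranks 1128 and 1228) was intergenic, 1429 bp upstream of ire-1 and 553 bp upstream of the noncoding gene C41C4.14. The third (8117610, pooled rank 1862, replicate ranks 1845 and 2029) was 7300 bp into ire-1, within an intron. The same position is an intron of unc-105, a gene for a degenerin-type ion channel nested there on the plus strand, 1151 bp from its start. This was the only one of the 7 IDR summits of the 6 genes with CCAAT within 50 bp. One box lay 5 bp before the summit and another 48 bp after it, beside GAGAGA matches 1 and 41 bp after it:
ire-1 summit within unc-105, chrII:8117560-8117660, minus strand: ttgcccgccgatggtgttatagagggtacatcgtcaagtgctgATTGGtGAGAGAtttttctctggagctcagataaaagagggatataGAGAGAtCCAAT

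The fourth ire-1 summit was the weakest of all members' IDR summits and the one on whose rank the replicates differed most, although they placed it within 1 bp. It lay at 8115445, in an intron 9465 bp into the gene and 500 bp upstream of the start of the shorter ire-1 transcript. Its pooled rank was 6807, close to the end of the IDR list, with a signal of 54.9 against the lowest IDR signal of 53.5. In replicate 1 it ranked 6432 and in replicate 2 it ranked 10178, beyond the 6932 strongest regions of that replicate. The other 6 of the 7 IDR summits were among the 6932 strongest regions of both replicates.

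xbp-1 (WBGene00006959, chromosome III, 4193809 to 4195358, plus strand), the target of IRE-1, had a single IDR summit almost at its start. The summit (4193790) was 19 bp upstream, with pooled rank 403 and a signal of 483.4, or 3.99 times the median. Its rank was 395 in replicate 1 and 433 in replicate 2, with the summit at -19 bp in replicate 1 and 2 bp past the start in replicate 2. The upstream gene dnj-16, a J-domain co-chaperone on the same strand, ends 379 bp before xbp-1, and no IDR summit lay in its own promoter window. Only 2.59% of protein-coding genes had a stronger summit than xbp-1. The strongest of its other relaxed summits was 900 bp past the start in replicate 1 (rank 7400). The pooled list had a summit near it, at 883 bp with rank 15167, and replicate 2 had none inside the gene apart from the one at the start.

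atf-6 (WBGene00000222, chromosome X, 12480948 to 12484904, plus strand) had exactly 1 summit in every list, at the same place. It was intergenic (12480641), 307 bp upstream of the start, with pooled rank 1162 and a signal of 268.0, which was 2.21 times the median. The replicates ranked it 1327 and 1103, at -303 and -307 bp. No other region of any relaxed list had its summit in the 5957 bp of its window, and the nearest other gene start, that of F45E6.1, was 3200 bp away. A stronger summit was found for 7.08% of genes.

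pek-1 (WBGene00003970, chromosome X, 11410176 to 11414887, minus strand) had the weakest best summit of the sensor genes. Its only IDR summit (11415427) was 540 bp upstream, just outside the promoter window, with pooled rank 6005 and a signal of 64.0, or 0.529 times the median. Its rank was 5682 in replicate 1 and 6561 in replicate 2, at -581 and -540 bp. A second summit, at -92 bp (11414979), fell just short of the IDR list, with pooled rank 7209 and a signal of 50.6. It was at -87 bp with rank 8061 in replicate 1 and at -117 bp with rank 8586 in replicate 2. The sequence there is shown because it lies nearer to the start than the IDR summit and holds GAGAGA at 2 places:
pek-1, second summit, chrX:11414929-11415029, minus strand: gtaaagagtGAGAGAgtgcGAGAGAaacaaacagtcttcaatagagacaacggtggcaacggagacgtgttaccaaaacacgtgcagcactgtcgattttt
The pek-1 window held 11 pooled summits in all, against 1 at atf-6, and those inside the gene ranked 12407 or weaker. A stronger summit was found for 26.9% of genes, and the median rank of the best summit over all genes with one was 2541.

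**Figure D1:**
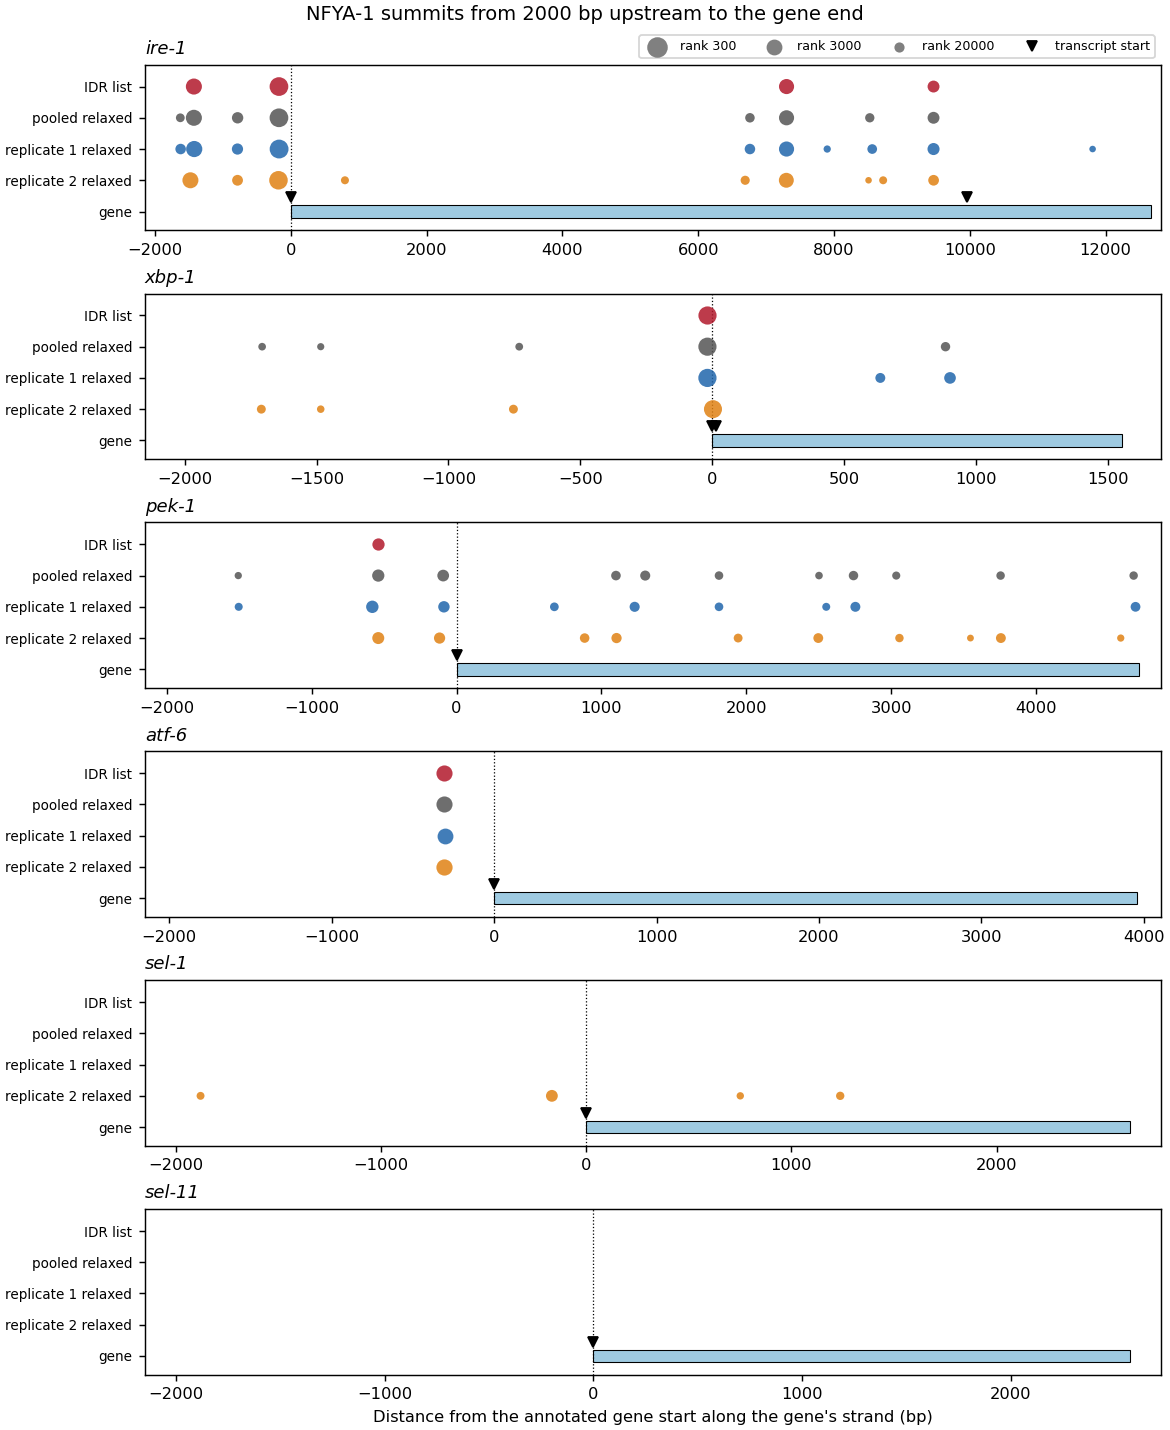
Summits of the IDR list and the 3 relaxed lists for each of the 6 genes, by distance from the annotated gene start in bp along the gene's strand. Each point is a summit, larger for a stronger rank within its list, the bar is the gene and triangles are transcript starts. At ire-1, xbp-1, pek-1 and atf-6 all 4 lists have a summit near or upstream of the start, sel-1 has summits in replicate 2 alone, and sel-11 has none.

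sel-1 (WBGene00004759, chromosome V, 12560732 to 12563383, plus strand), the adaptor of the degradation ligase, had summits in replicate 2 and in no other list. Replicate 2 had 4 there, at -1879, -167, 751 and 1238 bp. The strongest, at -167 bp (12560565), ranked 6991 with a signal of 24.4, and its q value stood at the ceiling of that list. Neither the pooled relaxed list nor that of replicate 1 had a summit in the window. Any relaxed summit was found for 5 of 6 members, against 58.6% of all genes. Summits in replicate 2 alone were found for 987 genes (4.94%), of which 10 (0.0501% of all genes) had 4 or more, the number at sel-1. This is the sequence at that summit, which holds neither CCAAT nor GAGAGA:
sel-1, chrV:12560515-12560615, plus strand: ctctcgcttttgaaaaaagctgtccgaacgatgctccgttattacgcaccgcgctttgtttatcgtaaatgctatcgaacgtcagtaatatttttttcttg

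The stretch around sel-1 was empty in 2 of the 3 relaxed lists. The pooled list had no summit for 23884 bp, from 12557677 to 12581561, and replicate 1 had none for 23843 bp. Of the gaps between neighbouring summits, 2.48% were longer in the pooled list, where the median gap was 1148 bp, and 2.36% were longer in replicate 1. These shares count gaps, and a longer gap takes in more of the genome. They are therefore not the share of genes that lie in such stretches, which was not computed. Of the 6991 replicate 2 regions ranked as high as the one at sel-1 or higher, 171 (2.45%) overlapped no region of either other list. Among the 1000 regions within 500 ranks of it, 42 (4.2%) overlapped neither list. The replicates therefore differed at sel-1, and what the difference comes from was not tested.

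sel-11 (WBGene00004768, chromosome V, 11767328 to 11769899, plus strand), which encodes the ligase, had no summit in any of the 4 lists. It starts 105 bp after the end of syx-5, a syntaxin gene on the same strand. Closely spaced worm genes on 1 strand are often transcribed together as an operon, and whether these are was not examined. The promoter window of syx-5 had a strong IDR summit (11764558), 346 bp upstream of syx-5 and 2770 bp upstream of sel-11, outside the sel-11 window. It had pooled rank 429, replicate ranks 451 and 423 and a signal of 468.0, or 3.87 times the median, which is between xbp-1 and atf-6 in strength. It was also 173 bp upstream of the divergent gene F55A11.1. Among 2634 protein-coding genes with no IDR summit in their window and a neighbour on the same strand ending at most 500 bp upstream, that neighbour's promoter window held an IDR summit for 407 (15.5%). Without the condition on their own window it was 874 of 3556 (24.6%). The syx-5 sequence had no CCAAT and 29.7% G and C:
syx-5, chrV:11764508-11764608, plus strand: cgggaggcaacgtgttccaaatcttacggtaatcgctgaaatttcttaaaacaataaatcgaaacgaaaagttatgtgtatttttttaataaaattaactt

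Of the 6 genes, sel-11 alone held the extended motif in its promoter window, 333 bp upstream of the start and in the annotated 3′ UTR of syx-5. No summit of any list lay in the sel-11 window. The site is given on the plus strand, with the motif's reverse complement in capitals, because it is a match without a peak. Of all promoter windows 6.57% held the extended motif (1312), and 256 of these 1312 (19.5%) had an IDR summit. CCAAT itself occurred in 77.8% of promoter windows, in those of pek-1, atf-6, sel-1 and sel-11 but not in those of ire-1 and xbp-1.
sel-11, chrV:11766981-11767009, plus strand: tttccattttTCATTGGTTcttttttttt

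**Figure D2:**
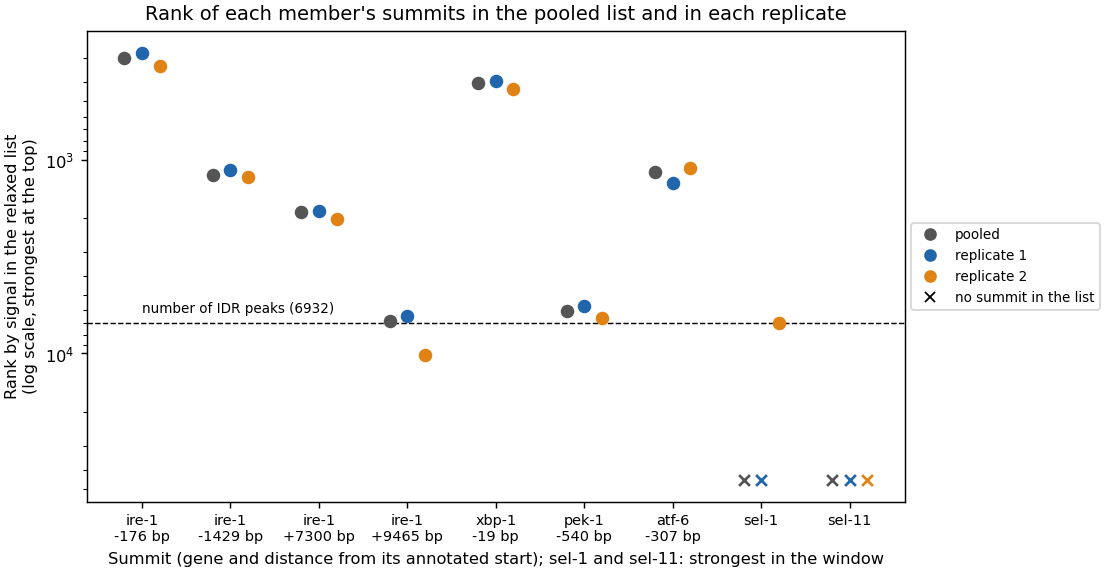
Rank by signal of each member's IDR summits in the pooled list and in each replicate (log scale, strongest at the top), with the strongest summit in the window for sel-1 and sel-11 and a cross where a list has none. The dashed line is the number of IDR peaks (6932). The replicates lie close together for all summits but that at +9465 bp of ire-1, and sel-1 has a value in replicate 2 alone.

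The replicates ranked the members' IDR summits about as closely as they ranked IDR summits in general. The larger replicate rank was 1.09 to 1.58 times the smaller for the 7 summits, against a median of 1.28 and an interquartile range of 1.13 to 1.54 over the 6750 IDR summits with a region in both replicates. The replicates' summits lay 1 to 56 bp apart, against a median of 20 bp (interquartile range 8 to 41). By pooled rank the order was ire-1, xbp-1, atf-6 and pek-1, and it was the same in each replicate. The replicate ranks of neighbours in this order did not overlap, from ire-1 (281 and 331) and xbp-1 (395 and 433) to atf-6 (1327 and 1103) and pek-1 (5682 and 6561).

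By the best summit of each sensor gene, ire-1 and xbp-1 of the IRE-1 arm came first, atf-6 next and pek-1 last. By pooled rank the 3 other ire-1 summits (1199, 1862 and 6807) were weaker than that of atf-6 (1162). For the second ire-1 summit the replicates disagreed on this. It was stronger than atf-6 in replicate 1 (rank 1128 against 1327) and weaker in replicate 2 (1228 against 1103). The genes next to each member in strength of their best summit had varied functions. ire-1 stood between vig-1 (rank 300), a component of the RNA-induced silencing complex, and ceeh-1 and zip-2, an epoxide hydrolase gene and a bZIP factor gene that share a summit of rank 302. xbp-1 stood between a summit of rank 401 shared by pabp-2, C17E4.6 and C17E4.11, and vha-12 (rank 405), a vacuolar ATPase subunit. atf-6 stood between fipr-25 (rank 1161) and tir-1 (rank 1163), a TIR-domain adaptor of innate immunity. pek-1 stood between F13D12.10 (rank 6004) and clec-149 (rank 6007), a C-type lectin. These are likenesses in rank alone, over 2 replicates.

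**Figure D3:**
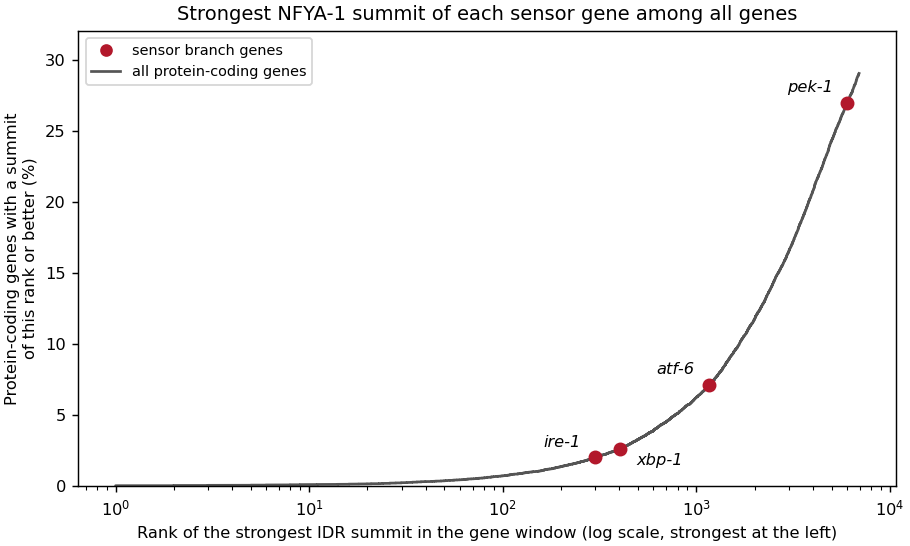
Strongest IDR summit in the gene window for the 4 sensor branch genes (points) on the cumulative share of all 19973 protein-coding genes (line), by rank on a log scale. Stronger summits were found for 1.99% of genes at ire-1, 2.59% at xbp-1, 7.08% at atf-6 and 26.9% at pek-1.

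Other genes of the same response ranged from the strongest summits of the data set to none. The lists of these 39 genes were written from known functions, and each count is set beside the 15.6% of all genes whose promoter window held an IDR summit. ER chaperone and folding genes had 10 of 13, led by hsp-3 (rank 3, 51 bp upstream) and crt-1, the calreticulin gene (rank 4, 266 bp upstream and 73 bp past the start of Y38A10A.8). The sensor genes' ranks of 301 to 6005, taken in the gene window, were all weaker than the promoter ranks of hsp-3, crt-1, pdi-2 (rank 8), enpl-1 (rank 9) and pdi-6 (rank 11). The other 5 with a promoter summit, pdi-1 (rank 592), manf-1 (rank 1506), dnj-7 (rank 3559), cnx-1 (rank 3616) and hsp-4, were weaker than ire-1 and xbp-1. In the gene window cnx-1 had a stronger summit (rank 1870). There pdi-3, without a promoter summit, had rank 5, 655 bp upstream and 45 bp past the start of VF15C11L.1. hsp-4, the inducible BiP gene that xbp-1 is known to activate, had rank 3792, 3 bp past its start. All 3 translocon genes had a promoter summit, led by sec-61.B (rank 75) and sec-61.G (rank 136), and the sec-61.B summit was nearer to another gene, Y38F2AR.16, 28 bp upstream of it.

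Among 14 other degradation genes, 6 had a promoter summit, and 8 had one in the wider gene window, where 29.0% of all genes had one. The strongest promoter summits were those of cdc-48.1 (rank 44, 169 bp upstream), an AAA ATPase that pulls substrates from the membrane, and ubc-7 (rank 581, 309 bp upstream), a ubiquitin-conjugating enzyme. The derlin gene cup-2 had a summit of rank 561, 616 bp upstream and 47 bp past the start of F25D7.11. The second derlin gene, der-2, and the CDC-48 cofactor genes ufd-1, npl-4.1 and npl-4.2 had none in the gene window. marc-6, a second ER membrane ligase, had a summit of rank 2407, 848 bp upstream. In all, 6 of these 14 genes had no IDR summit in the gene window, as was the case for sel-1 and sel-11.

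Downstream of the sensors, atf-4, the bZIP effector of the PERK branch, had a promoter summit of rank 1848, 119 bp upstream, stronger than that of pek-1. eif-2A, a gene for another initiation factor, had one of rank 3497. The substrate gene eif-2alpha had a summit of rank 351 only in the gene window, 1793 bp upstream and 4 bp past the start of Y37E3.27, and gcn-2, the other eIF2alpha kinase in the list, had none. rtcb-1, the ligase that joins the cut xbp-1 mRNA, had a summit of rank 4070, 724 bp upstream. Among the remaining regulators, manf-1, a secreted ER stress factor, was the only one of 5 with a promoter summit (rank 1506). It is also in the chaperone list.

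CCAAT was within 50 bp of the promoter summit in 6 of the 10 chaperone and folding genes that had one, and the extended motif in 5, against 27.6% and 11.1% of all IDR summits. Among the 6 degradation genes with a promoter summit, 1 had CCAAT and none had the extended motif. The difference between the lists was not tested, since the genes were chosen with results of these data known. The ER stress response element known from mammals, sought as CCAAT followed after 9 bases by CCACG on either strand, was at 2 of 6932 IDR summits (0.0289%). It was at pdi-2 and at none of the members' summits.

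**Figure D4:**
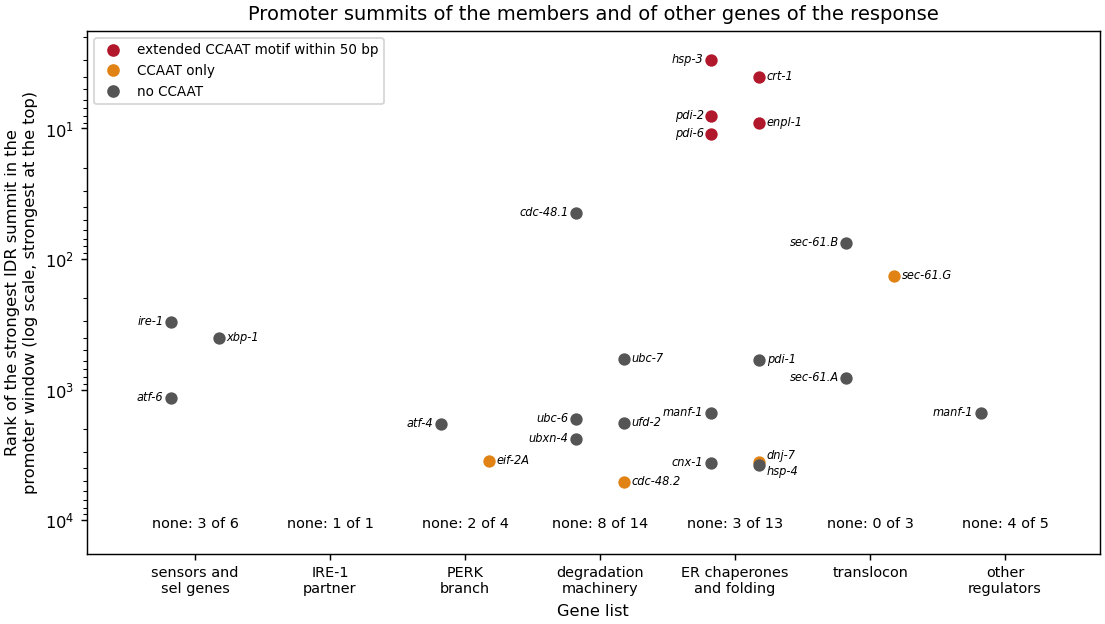
Rank of the strongest IDR summit in the promoter window (log scale, strongest at the top) for the 6 members and the other lists, coloured by CCAAT within 50 bp, with the number of genes without such a summit below each list. The extended motif is at 5 chaperone and folding genes of ranks 3 to 11 and at none of the other points.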

How the data were processed

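Peaks of NFYA-1 in 2 L3 replicates were deposited by the authors as narrowPeak lists on ce11. Per the deposited file descriptions, a relaxed list was called on each replicate and on both together against a control, and the IDR list was derived from them. No source used here gives the aligner, peak caller or depth. The signal value per region is the authors' own, with no stated scale, so it was compared within a list only. The −log10 q values deposited by the authors have a ceiling and were used only to say which regions reach it. The lists on ce10 were not used.

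A summit is the region start plus the deposited summit offset, in 1-based coordinates. Ensembl release 115 gene models and the genome of WBcel235, the assembly of ce11, were used. A gene start is the annotated 5′ end, and trans-splicing in worms can hide the true one. A replicate's rank is that of its strongest region over the summit. Motifs were sought on both strands. There is 1 group, so no test was made. Summit assignment and the CCAAT search were tested on simulated data. The members, lists and windows were chosen with earlier results of these data known, and GAGAGA and the ER stress element were added after the files were examined. Named genes are the members, genes with the nearest start to their summits, the strongest promoter summits of each list, and the genes adjacent in rank. Others named (syx-5, the chaperone genes after crt-1, and the remaining list genes) were singled out after their values were seen. Of the names written in the lists, 2 matched no gene and were left out. Alternatives varied the window, assignment, stringency, motif and replicate. Python 3.11.15, numpy 2.4.6, pandas 2.3.3 and matplotlib 3.10.9 were used.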

Additional observations from a re-analysis of the deposited data

How the results depend on the processing

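The count of 4 members with an IDR summit was 4 also with a window starting 1000 bp upstream, with assignment to the nearest start alone and with the 6932 strongest regions of either replicate. It was 3, without pek-1, in the promoter window and with the strongest 3466 summits. With a window starting 3000 bp upstream, chosen after the data were seen, it was 5, since the syx-5 summit then fell to sel-11, against 32.5% of all genes. The share of all genes was 15.6% in the promoter window, 17.0% with the nearest start alone and 18.5% with the strongest 3466 summits, where the definition itself takes in fewer summits or genes. ire-1 had 1 summit in place of 4 in the promoter window and with the nearest gene start alone, which leaves out the start of the shorter ire-1 transcript. Each replicate alone gave ranks of 281 to 331 for ire-1, 395 to 433 for xbp-1, 5682 to 6561 for pek-1 and 1103 to 1327 for atf-6. The offsets were -183 to -174 bp for ire-1, -19 to 2 bp for xbp-1, -581 to -540 bp for pek-1 and -307 to -303 bp for atf-6. CCAAT was at 1 sensor summit (atf-6) within 100 bp and at 0 within 25 bp. In the gene window the IRE-1 partner list had 1 gene with a summit and the other regulators had 3. The counts of the 4 remaining lists stayed within 1.5 times under these alternatives. Read depth is unknown, so a missing peak may lie under the detection limit.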
